A study of Mus musculus with 137 samples.

Results

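The respiratory chain and ATP synthase genes were followed in mouse bone marrow derived macrophages that lacked Beclin1, carried a Beclin1 point mutation, or were wild type, before and after activation with lipopolysaccharide and interferon gamma. Members were chosen by symbol: mitochondrially encoded genes beginning with mt-Nd, mt-Co, mt-Atp or mt-Cyt, and nuclear genes beginning with Ndufa, Ndufb, Ndufc, Ndufs, Ndufv, Uqcr, Cox4i, Cox5, Cox6, Cox7, Cox8 or Atp5. Of the 34573 symbols in each count table, 102 matched. The pseudogene name Atp5l-ps1 was dropped, as was mt-Nd4l, which had no counts in any of the 137 libraries. The remaining 100 members were 12 mitochondrially encoded and 88 nuclear genes. By prefix, the nuclear members comprised 38 complex I subunits, 6 complex I assembly factors (Ndufaf), 8 complex III, 18 complex IV and 18 complex V symbols. Of the mitochondrially encoded members, 6 belong to complex I, 1 to complex III, 3 to complex IV and 2 to complex V.

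Oxidative phosphorylation passes electrons through complexes I, III and IV of the inner mitochondrial membrane to oxygen, and complex V uses the resulting proton gradient to make ATP. Except for complex II, each of these complexes is built from subunits of both genomes, so mitochondrial transcripts, which are made as long polycistronic RNAs, and nuclear transcripts must both supply it. Macrophages activated with lipopolysaccharide and interferon gamma are known to lean on glycolysis and to lower respiration, and Beclin1 is a core component of the lipid kinase complex that starts autophagy, the process that also removes mitochondria.

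The study comprised 3 cohorts, named KO1, KO2 and KI in its count tables. In KO1 and KO2, knockout (KO) macrophages came from Beclin1flox/flox-LysM-Cre+ mice and wild-type (WT) macrophages from Beclin1flox/flox-LysM-Cre- mice, so both carried floxed alleles and only KO carried the Cre, which is driven from the myeloid gene Lyz2. In KI, Beclin1 F121A/F121A macrophages were set against those of littermate WT mice. All mice were 7 weeks old, marrow was grown for 7 days in 20 ng/ml M-CSF, and cells were then left resting (0 h) or given 100 ng/ml lipopolysaccharide with 100 ng/ml interferon gamma for 6 h or 24 h. KO1 had 3 KO and 3 WT cultures at each time, each sequenced as 3 repeats that were summed. KO2 had 8 libraries per group, except 7 in WT at 24 h, and KI had 6 per group. The labels do not say that the cultures of KO1 or the libraries of KO2 and KI came from separate mice. The p-values therefore measure the spread between cultures or libraries, which may be technical. KO1 culture numbers recur at all 3 times, and the main fit did not pair them. For 2 samples, 1 repeat of KO1 KO at 6 h and 1 KI WT library at 6 h, title and description gave different times, and both were placed by title.

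Library totals spanned 1898574 to 6579185 in KO1, from 1448218 to 15627379 in KO2 and from 3574158 to 11786453 in KI. Becn1, the targeted gene, was lower in KO than in WT at 0, 6 and 24 h by log2 fold changes of -1.51, -1.52 and -1.41 in KO1 and -3.28, -3.31 and -2.63 in KO2. In KI the corresponding differences, of F121A against WT, were -0.08, 0.05 and -0.04, where a point mutation need not move the transcript. In KO2 the KO libraries expressed the Y-linked Ddx3y and the WT libraries the X-linked Xist, so sex and genotype of that cohort cannot be told apart. Macrophage markers were high in all groups, and erythroid markers summed to at most 0.324 CPM (counts scaled by library size) in any culture or KO2 or KI library. Markers of other cells differed between KO1 groups. In resting KO1 KO, 5 of 5 fibroblast and 11 of 12 neutrophil markers reached 1 CPM, against 3 and 8 in resting KO1 WT. At 6 h these were 0 and 8 in KO1 KO and 2 and 8 in KO1 WT. The part of such cells in the KO1 comparisons was not tested. Member levels below are CPM of library sizes scaled by the trimmed mean of M-values (TMM), unless per kilobase or per cent of counts is stated. Tests were edgeR quasi-likelihood tests over all expressed genes of a cohort with Benjamini-Hochberg adjustment, and a member is called when its adjusted p is under 0.05. Shares of all genes called are of fits with TMM factors throughout. They do not apply to member counts given on library totals or other scalings.

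All 12 mitochondrially encoded members were expressed enough to be tested in every cohort. Their counts differed widely in resting WT macrophages when divided by transcript length. mt-Atp6, which encodes subunit a of ATP synthase, ranked first in every cohort, at 3180 CPM per kilobase in KI, 2134 in KO1 and 5596 in KO2. mt-Atp8, whose annotated bases overlap those of mt-Atp6, stood at 431 in KI, 373 in KO1 and 612 in KO2. Counts per kilobase may therefore differ from transcript levels, and how far was not tested. mt-Nd6, a complex I subunit, ranked last, at 35.95 CPM per kilobase in KI, 49.2 in KO1 and 79.5 in KO2. It lies at chrM:13552-14070 on the minus strand (GENCODE vM21 on GRCm38, which is mm10) and is the one member encoded on that strand. The libraries do not mark strand, so its counts cannot be assigned to the minus strand. The complex I subunit mt-Nd2 was also low, at 86.4 CPM per kilobase in KI, 131 in KO1 and 192 in KO2, although the complex I subunit mt-Nd1, upstream of it on the same strand, stood at 1274, 1206 and 2574. Nuclear copies of the mitochondrial genome share sequence with some members. Of the 38-base windows, 100% in mt-Co2, 99.9% in mt-Co3 and 99.5% in the top-ranked mt-Atp6 recurred in another annotated transcript. The share was 0% for mt-Nd1 and 1.99% for mt-Cytb. For the dropped mt-Nd4l this share was 98.8%, and its nuclear copy Gm10222 had 7 counts over all libraries.

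In KI the mitochondrially encoded members lost ground to the nuclear ones with time after activation. This comparison uses summed counts within a library and so does not depend on how libraries are scaled. The 12 mitochondrially encoded members held 1.77 ± 0.117% of all counts in resting KI WT macrophages, 0.764 ± 0.151% at 6 h and 0.404 ± 0.0715% at 24 h (SD, n = 6 each). The nuclear members held 0.531 ± 0.0286%, 0.293 ± 0.0217% and 0.387 ± 0.0219%. The ratio of the mitochondrially encoded to the nuclear sum was therefore 3.36 ± 0.381 at rest, 2.65 ± 0.699 at 6 h and 1.05 ± 0.237 at 24 h. No KI WT library at 24 h (0.784 to 1.46) reached the range of the resting libraries (2.89 to 3.79). Macrophage markers summed to 14957 to 17325 CPM in KI WT at 24 h against 108340 to 112939 CPM at rest. This sum includes the abundant Lyz2, which had a log2 fold change of -2.07 (edgeR adjusted p = 2.4e-22), so it does not measure the number of macrophages. The part of the markers in the time course was not tested. KI F121A macrophages followed the same course, with mean ratios of 3.37 at rest, 2.79 at 6 h and 0.917 at 24 h.

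The mean WT ratio at 24 h was higher in KO2 and KO1 than in KI, a difference between cohorts that was not tested for the ratio. In KO2 WT it was 4.36 ± 0.808 at rest, 4.203 ± 0.624 at 6 h (n = 8 each) and 2.47 ± 0.533 at 24 h (n = 7), and the 24 h range of 1.75 to 3.11 overlapped the resting range of 2.97 to 5.30. In KO2 KO it was 3.23 ± 0.368, 3.15 ± 0.315 and 2.79 ± 0.611 (n = 8 each). KO2 KO libraries had the lower mean at rest, with a range of 2.70 to 3.80 that overlapped that of WT. Whether the time course of the ratio differed between the genotypes was not tested. In KO1 WT the ratio averaged 2.31 at rest, 3.23 at 6 h and 1.59 at 24 h, and in KO1 KO it was 1.82, 3.12 and 1.87. The 3 KO1 WT cultures at 24 h stood at 0.985, 1.88 and 1.91 in ascending order, and the lowest of them lay within the KI WT range. Within a single KO1 culture, the highest of 3 repeats exceeded the lowest by 1.05- to 1.83-fold.

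**Figure D1:**
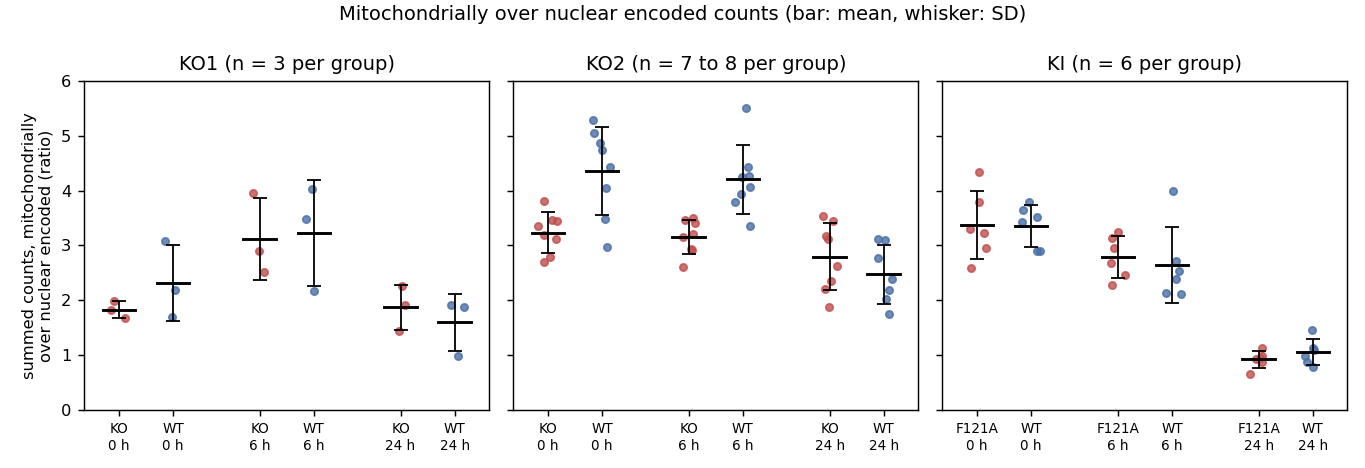
Ratio of summed counts of 12 mitochondrially encoded members to those of the nuclear members, by cohort (panels), time in hours and genotype on the x axis (mutant left of WT); points are cultures in KO1 and libraries in KO2 and KI, bars are means and whiskers SD. KI libraries at 24 h lie near 1, below every resting KI library, and KO2 KO lies below KO2 WT on average at 0 h and 6 h.

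Gene by gene, 11 of the 12 mitochondrially encoded members were called lower in KI WT macrophages at 24 h than at rest, with a median log2 fold change of -1.75 over the 12, where 29.9% of all 11500 tested genes were called lower and 33.9% higher (median 0.03). For all 11 the 24 h libraries lay wholly outside the resting range. How many of all tested genes did so was not counted, so that separation is not particular to the members. Without TMM factors, on plain library totals, all 12 were called lower. That scaling moved the median of all genes down at 24 h, as given below, so it could not have turned a fall into a rise. Complex I subunits spread the most. mt-Nd1 stood at 141, 187 and 292 CPM (lowest, median and highest of 6) at 24 h against 948, 1231 and 1463 CPM at rest, a log2 fold change of -2.59 ± 0.16 (SE, adjusted p = 5.07e-18). mt-Nd3 stood at 1.95, 3.63 and 6.34 CPM at 24 h against 20.9, 27.1 and 34.4 CPM at rest (-2.85 ± 0.23, adjusted p = 8.48e-15). By contrast mt-Nd5 was at 112, 168 and 264 CPM at 24 h against 268, 297 and 459 CPM at rest, and fell by 0.90 ± 0.16 on the log2 scale (adjusted p = 3.14e-06). mt-Nd6, annotated on the other strand, which the reads do not mark, was at 9.05, 13.5 and 22.9 CPM at 24 h against 13.1, 19.2 and 23.5 CPM at rest. Its groups overlapped and its log2 fold change of -0.38 ± 0.23 was not called (adjusted p = 0.147).

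Outside complex I, mt-Cytb, the mitochondrially encoded subunit of complex III, stood at 177, 306 and 549 CPM in KI WT at 24 h against 861, 1269 and 1623 CPM at rest (log2 fold change -1.90 ± 0.21). For complex V, mt-Atp6 was at 413, 539 and 781 CPM at 24 h against 1894, 2203 and 2422 CPM at rest (-1.96 ± 0.14), and mt-Atp8, its partner in the membrane domain, at 17.8, 22.1 and 32.6 against 82.7, 89.0 and 91.0 CPM (-1.90 ± 0.19). The 24 h and resting groups of these 3 genes did not overlap. The 3 catalytic core subunits of complex IV did not move together. mt-Co2 fell by 1.49 ± 0.13 and mt-Co3 by 1.23 ± 0.15 on the log2 scale, whereas mt-Co1 fell by 0.47 ± 0.14 (adjusted p = 0.00286). mt-Co1 was at 1768, 2212 and 2405 CPM at 24 h against 2668, 2909 and 3409 CPM at rest.

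At 6 h the KI WT picture was mixed. There, 6 mitochondrially encoded members were called lower and 1 higher, with a median of -0.28, beside 36.8% and 36.7% of all tested genes. mt-Nd1 stood at 459, 546 and 738 CPM at 6 h against 948, 1231 and 1463 CPM at rest (log2 fold change -1.12 ± 0.16, adjusted p = 2.71e-08). The others called lower were mt-Nd3, mt-Nd2, mt-Cytb, mt-Nd5 and mt-Nd4, at -0.96, -0.80, -0.65, -0.50 and -0.43. mt-Co1 was the member called higher, at 3817, 4035 and 5141 CPM at 6 h against 2668, 2909 and 3409 CPM at rest (0.51 ± 0.14, adjusted p = 0.00107). On library totals mt-Co1 was instead lower at 6 h, at -0.10, -0.43 and -0.68 in KO1, KO2 and KI, and all 12 members were called lower in KI and in KO2. With each library's trend of counts over GC content removed, 11 were called lower in KI, 4 in KO2 and 0 in KO1, and no member was called higher. The mitochondrially encoded members are 31.9 to 39.9% GC, against a median of 49.1% over the genes tested in KI.

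KO2 WT macrophages showed the same direction at 24 h at a smaller size. There, 8 of 12 mitochondrially encoded members were called lower (median -0.50), beside 29.2% of all 10794 tested genes, with 29.9% higher. On library totals all 12 were called lower, a scaling that also moved the median of all genes down and could not have turned a fall. mt-Nd3 stood at 17.96, 34.7 and 46.1 CPM at 24 h against 37.9, 61.5 and 137 CPM at rest, with overlapping groups and a log2 fold change of -1.19 ± 0.23 (adjusted p = 8.47e-06). mt-Co3 (-0.83 ± 0.17), mt-Co2 (-0.72), mt-Atp6 (-0.65), mt-Atp8 (-0.65), mt-Cytb (-0.52), mt-Nd2 (-0.49) and mt-Nd4 (-0.42) were also called lower. mt-Nd1, which moved most but 1 in KI, had 1354, 1824 and 2680 CPM at 24 h against 1298, 2482 and 3474 CPM at rest in KO2 and was not called (-0.38 ± 0.17, adjusted p = 0.052). At 6 h only mt-Co1 was called in KO2, higher by 0.40 ± 0.16 (adjusted p = 0.0221), where 32.4% of all genes were called higher and 38.4% lower. Without resting WT library 4, 2 members were called.

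In KO1 WT, 1 member was called at each time. mt-Co1 was called higher at 6 h, with 4720, 6045 and 7511 CPM in the 3 cultures in ascending order against 2717, 3498 and 3505 CPM at rest (0.91 ± 0.33, adjusted p = 0.0235), where 25.7% of all 13693 tested genes were called higher and 31% lower. mt-Nd2 was called lower at 24 h, with 28.6, 53.8 and 64.7 CPM against 58.8, 130 and 219 CPM at rest, with overlapping groups (-1.47 ± 0.46, adjusted p = 0.0155), where 20.6% were called lower and 21.3% higher. The resting KO1 WT cultures were themselves far apart, for example at 353, 1227 and 1882 CPM, in ascending order, for mt-Nd1. Nuclear calls in KO1 WT numbered 42 at 6 h and 40 at 24 h; without S33 they were 25 and 25, and without S35 the 24 h count was 24. The call of mt-Co1 was lost without culture S33, S34 or S38, and that of mt-Nd2 without S34.

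The difference between cohorts was tested in 1 joint fit of all libraries, chosen after the changes had been seen. The 24 h change of KI WT lay below that of KO1 WT for 8 of 12 mitochondrially encoded members (9.60% of all 13369 genes below, 8.98% above) and below that of KO2 WT for 9 of 12 (11.2% below, 9.65% above). mt-Nd1 differed the most, by -2.37 ± 0.43 from KO1 (adjusted p = 1.06e-05) and -2.33 ± 0.33 from KO2 (adjusted p = 1.17e-08). mt-Nd6 differed by -0.10 and -0.39, which was not called. At 6 h, mt-Nd1 alone was called, by -1.34 against KO1 (adjusted p = 0.0217; background 5.71% below, 7.46% above) and -1.32 against KO2 (adjusted p = 0.00147; 9.20% below, 6.80% above). Sex markers differed between KI and KO1. In KO1 the mean log2 CPM was 4.52 for Ddx3y and -0.12 for Xist. In KI it was 7.16 for Xist, and Ddx3y was not among the genes tested. The part of sex in the difference between cohorts was not tested. The cohorts are separate experiments, so what else differed between them cannot be told apart from their mice.

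**Figure D2:**
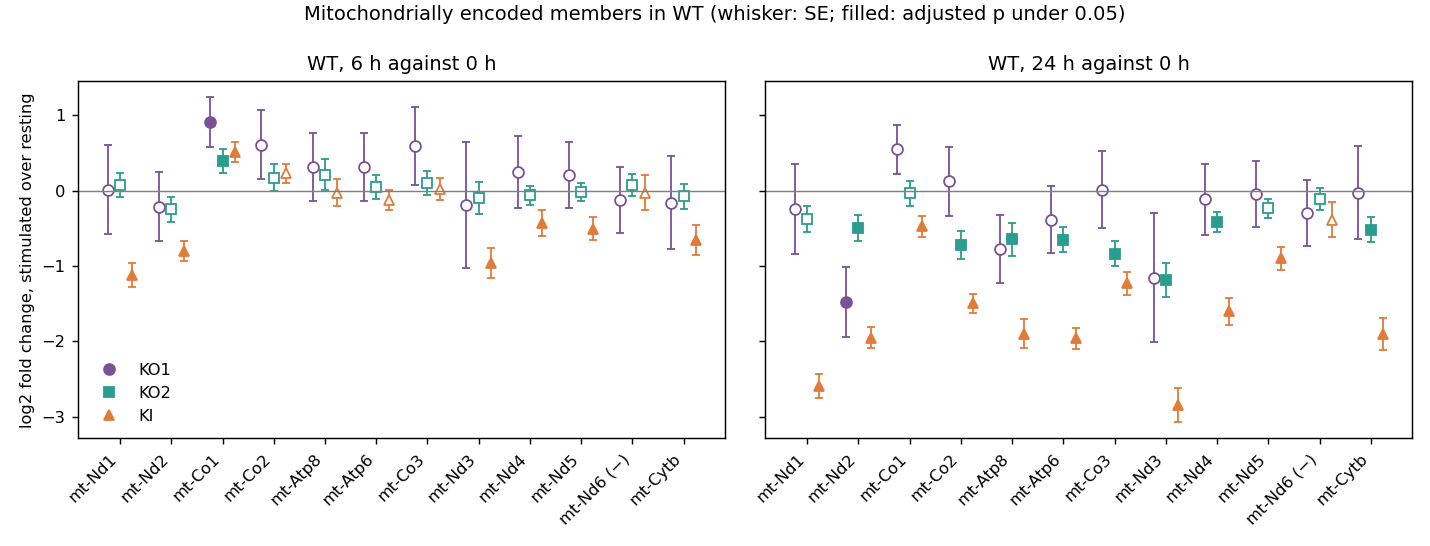
Log2 fold change of the 12 mitochondrially encoded members in WT macrophages at 6 h and 24 h over 0 h, with SE whiskers, in the 3 cohorts. Members run along the mitochondrial genome, and mt-Nd6 is marked as the one annotated on the minus strand, though the reads do not mark strand. Filled points have an adjusted p under 0.05. At 24 h in KI every member but mt-Nd6 is filled and below 0, and mt-Co1 is filled and above 0 at 6 h in each cohort on the TMM scale, while on library totals it is below 0.

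The 2 mitochondrial ribosomal RNAs lie upstream of mt-Nd1 and are not members. mt-Rnr1 was called lower at 24 h in KO1, KO2 and KI WT, with log2 fold changes of -1.84, -1.23 and -0.83. mt-Rnr2 was called lower at 24 h in KO2 (-0.83) and KI (-0.31) but not in KO1, and higher at 6 h in KI (0.74). Neither was tested against the members or between cohorts.

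KO2 KO macrophages had lower mitochondrially encoded transcripts than KO2 WT at rest and at 6 h. In that cohort 10 of 12 members were called lower in KO than in WT at rest (median -0.62; 4.38% of all genes called lower and 3.97% higher), and 10 of 12 at 6 h (median -0.54; 7.62% lower and 7.72% higher). On library totals, which shift the median of all genes by 0.20 at rest and 0.24 at 6 h, 6 of 12 were called lower at each time and none higher. The shares of all genes just given are of the TMM fit. Without resting WT library 4, the highest for mt-Atp8, 6 of 12 were called lower at rest and 11 at 6 h. mt-Co3 was at 1157, 2013 and 2318 CPM (lowest, median and highest of 8) in resting KO against 2397, 3179 and 5028 CPM in resting WT, without overlap (log2 fold change -0.83 ± 0.16, adjusted p = 0.000252). mt-Cytb was at 761, 1464 and 1911 CPM in KO against 1621, 2269 and 3460 CPM in WT (-0.84 ± 0.16, adjusted p = 0.000203). mt-Nd4, a membrane arm subunit of complex I, was at 353, 470 and 534 CPM in KO against 467, 705 and 1008 CPM in WT (-0.68 ± 0.13, adjusted p = 0.000141). The groups of the last 2 genes overlapped, though every KO library lay below the WT median. The members not called at rest were mt-Co1 (-0.32, adjusted p = 0.252) and mt-Nd6 (-0.22, adjusted p = 0.407).

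At 6 h mt-Nd5, another membrane arm subunit of complex I, separated the KO2 genotypes without overlap, at 284, 451 and 477 CPM in KO against 501, 580 and 726 CPM in WT (-0.51 ± 0.12, adjusted p = 0.00227). mt-Nd3 had the largest estimate, -0.93 ± 0.22 (adjusted p = 0.00183), with 23.2, 39.6 and 48.4 CPM in KO against 30.6, 70.0 and 97.7 CPM in WT. At 24 h, 3 members were called lower, all of complex I (4.99% of all genes lower, 6.33% higher). mt-Nd5 differed by -0.56 ± 0.13 (adjusted p = 0.00118), mt-Nd6 by -0.55 ± 0.15 (adjusted p = 0.00975) and mt-Nd4 by -0.42 ± 0.13 (adjusted p = 0.0284). mt-Nd6 had 16.97, 26.4 and 36.4 CPM in KO against 31.5, 36.1 and 45.8 CPM in WT at 24 h. mt-Nd4 and mt-Nd5 were thus called at all 3 times. The change of the genotype difference over time was not called for any mitochondrially encoded member (0 by edgeR and 0 by DESeq2, 4 at an unadjusted p under 0.05), where 11.9% of all genes were called.

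Other RNA differed between the KO2 genotypes too. Resting macrophage markers summed to 25885 to 30866 CPM in KO against 50635 to 59807 CPM in WT, most of it Lyz2, at 14917 to 18731 CPM in KO against 39081 to 48280 CPM in WT, the locus that carries the Cre. Neutrophil markers summed to 85.9 to 127 CPM in KO against 60.3 to 88.4 CPM in WT at rest. Members of that list did not all go this way. Of its 12 markers, 4 reached 1 CPM in each genotype at rest. Ly6g and Camp had no counts in resting KO, while all 12 had counts in resting WT. The part of these markers in the mitochondrial difference was not tested, and in bulk RNA fewer cells of a type and less RNA per cell cannot be told apart.

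**Figure D3:**
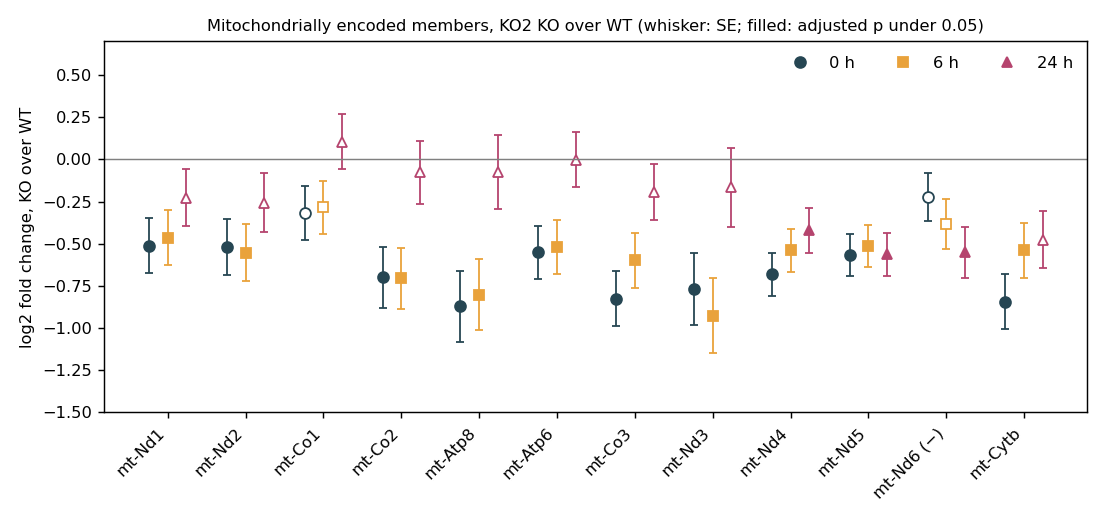
Log2 fold change of KO over WT with SE whiskers for the 12 mitochondrially encoded members in KO2 at 0, 6 and 24 h; filled points have an adjusted p under 0.05. Points lie below 0 for all 12 members at 0 h and 6 h, 10 of them filled at each time, and 3 complex I members are filled at 24 h.

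The other cohorts gave few such calls. In KO1, KO against WT gave 0 calls among 12 mitochondrially encoded and 80 tested nuclear members at each of 0, 6 and 24 h by edgeR and by DESeq2, where 0.0219%, 0.0219% and 0.00730% of all genes were called. At an unadjusted p under 0.05, edgeR gave 0 mitochondrially encoded members at every time and 5, 0 and 2 nuclear ones. All 12 mitochondrially encoded estimates were below 0 in KO1 at rest and at 6 h, with medians of -0.33 and -0.26, but their SE were large. mt-Cytb had 134, 206 and 469 CPM in resting KO1 KO cultures against 132, 397 and 925 CPM in WT, a log2 fold change of -0.84 ± 0.62 (adjusted p = 0.895), close in size to the KO2 estimate and within the spread of the cultures. No KO1 gene passed for the change of genotype difference over time (0.00% of all genes).

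In KI, F121A against WT gave 0 mitochondrially encoded calls at rest and at 6 h by edgeR and DESeq2 (1 and 0 at an unadjusted p under 0.05), beside 2.37% of all genes called higher and 0.574% lower at rest and 7.99% higher and 3.49% lower at 6 h. At 24 h mt-Atp8 was called lower, at 7.39, 16.1 and 18.4 CPM in F121A against 17.8, 22.1 and 32.6 CPM in WT (-0.66 ± 0.20, adjusted p = 0.034), beside 3.78% lower and 3.42% higher. The groups overlapped, and all 12 estimates were below 0 with a median of -0.24. Without WT library 5 at 6 h, 2 members were called. Macrophage markers, which include the abundant Lyz2 (log2 fold change -0.52), summed to 12425 to 13622 CPM in F121A against 14957 to 17325 CPM in WT at 24 h. Their part was not tested. Of the 12, 6 had an unadjusted p under 0.05. The genotype by time test called 0 members in KI by edgeR and DESeq2 (2 mitochondrially encoded and 9 nuclear at an unadjusted p under 0.05), where 8.32% of all genes were called. Without WT library 5 at 6 h it called 1 mitochondrially encoded member.

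Nuclear members answered activation by complex. After filtering, 80 of 88 could be tested in KO1 and 79 in KO2 and KI. At 6 h complex I subunits were mostly lower and complex IV subunits mostly higher or not called. Of 37 tested complex I subunits by prefix, 21, 24 and 20 were called lower and 1, 1 and 5 higher in KO1, KO2 and KI WT, with medians of -0.55, -0.49 and -0.34. The 37 include Ndufa4, a complex IV subunit despite its name, which was among those called lower in KO2 and KI. Of 12, 11 and 11 tested complex IV subunits, 5, 6 and 10 were called higher and 1, 1 and 1 lower, with medians of 0.30, 0.36 and 0.80. Complex V members by prefix were split, at 2, 6 and 9 higher and 4, 3 and 5 lower of 17. The lower ones include Atp5s and Atp5sl in every cohort, the 2 complex V symbols called lower in all 3. RefSeq names these Dmac2l and Dmac2, so their place in complex V rests on the older symbol alone. Complex III members were split too, at 1, 1 and 4 higher and 2, 1 and 2 lower of 8. Together the nuclear members had 9, 14 and 28 calls higher and 33, 30 and 31 lower, beside the shares over all genes given above. On library totals the split became 1, 3 and 3 higher against 64, 71 and 74 lower, since that scaling moved the median of all genes by -1.11, -0.93 and -1.19 in KO1, KO2 and KI. With the GC trend of each library removed it was 8, 11 and 19 higher against 24, 31 and 35 lower.

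The contrast between complexes did not rest on scaling. The summed complex IV to complex I nuclear counts, a ratio within each library, stood at 1.18 ± 0.0614 in resting KI WT, 2.06 ± 0.271 at 6 h and 1.29 ± 0.0689 at 24 h (SD, n = 6 each). Both sums go by prefix, so Ndufa4 counts under complex I. In KO2 WT the ratio was 0.913 ± 0.0484, 1.36 ± 0.120 and 1.09 ± 0.0809, and in KO1 WT 0.836 ± 0.0764, 1.30 ± 0.00692 and 1.16 ± 0.0683. In each of the 3 cohorts the 6 h WT values lay wholly above the resting ones. In the mutants of KO1, KO2 and KI the means were 0.846, 0.800 and 1.12 at rest and 1.36, 1.24 and 1.87 at 6 h.

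**Figure D4:**
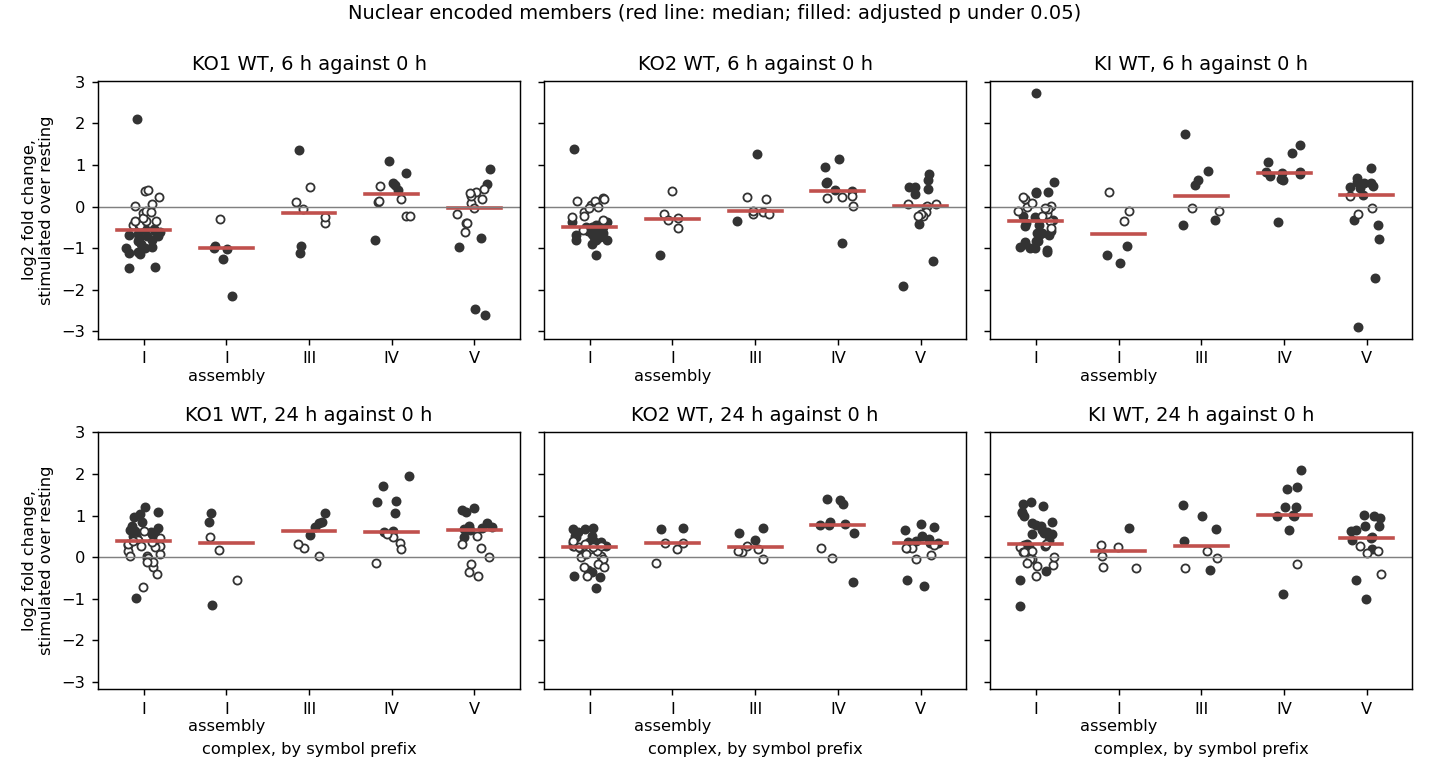
Log2 fold change of each nuclear member in WT macrophages at 6 h (upper row) and 24 h (lower row) over 0 h on the TMM scale, by complex of the symbol prefix, in the 3 cohorts; filled points have an adjusted p under 0.05 and red bars are medians. At 6 h complex I lies below 0 and complex IV above it in median, and at 24 h both medians lie above 0, while on library totals the median over nuclear members is below 0 at both times.

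Calls in the same direction in all 3 cohorts at 6 h numbered 8 higher and 20 lower among 79 nuclear members, beside 21.8% and 27.1% of the 10612 genes tested in all 3. The 8 were the complex I subunit Ndufs4, the complex III Rieske protein Uqcrfs1, the complex IV subunits Cox7a2, Cox5a, Cox7b and Cox5b, and the ATP synthase subunits Atp5a1 and Atp5f1. Of the 20, 15 were complex I subunits, among them the core subunits Ndufs7, Ndufs8, Ndufv1 and Ndufs1, which carry redox cofactors. The others were the assembly factor Ndufaf4, the small complex III subunit Uqcr11, the supercomplex factor Cox7a2l, and Atp5s and Atp5sl. Ndufs4 thus went against its own complex. On library totals Ndufs4 was the one nuclear member still called higher in all 3 cohorts, 62 were called lower, and these included all 20 above. The shares of all genes given for the TMM fit do not apply to these counts.

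The 4 promoters below belong to the 2 members with the highest mean change at 6 h, the one with the lowest, and the one with the highest at 24 h, among members called alike in all 3 cohorts whose mean log2 CPM was 3 or more and that have a single promoter. They are shown because these genes carry the opposed changes. Each is RefSeq sequence of GRCm38.p6 on the gene's own strand, 250 bases before to 50 after the start. Capitals mark matches, on either strand, to motif letters searched for factors linked to respiratory or inflammatory genes: NRF1 CGCATGCGC, ETS CCGGAA, YY1 AAGATGGCG, Sp1 GGGCGG, NF-kB GGGNNTTTC, ISRE GAAANNGAA and AP-1 TGANTCA. The windows are Ndufs4 at chr13:114388045-114388344 (minus), Uqcrfs1 at chr13:30545267-30545566 (minus), Ndufs7 at chr10:80249199-80249498 (plus) and Cox7a2 at chr9:79759804-79760103 (minus).
Ndufs4: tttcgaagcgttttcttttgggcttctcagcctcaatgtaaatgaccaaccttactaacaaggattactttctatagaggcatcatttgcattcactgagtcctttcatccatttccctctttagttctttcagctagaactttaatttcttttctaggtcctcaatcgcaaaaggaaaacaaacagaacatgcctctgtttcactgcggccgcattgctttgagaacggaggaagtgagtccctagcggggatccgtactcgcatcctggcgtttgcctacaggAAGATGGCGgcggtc
Uqcrfs1: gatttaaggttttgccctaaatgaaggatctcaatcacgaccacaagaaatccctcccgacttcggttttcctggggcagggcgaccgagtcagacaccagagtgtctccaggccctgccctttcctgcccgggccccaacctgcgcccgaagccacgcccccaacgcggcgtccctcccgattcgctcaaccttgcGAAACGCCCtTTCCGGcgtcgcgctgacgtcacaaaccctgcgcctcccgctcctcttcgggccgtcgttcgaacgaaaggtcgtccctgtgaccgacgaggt
Ndufs7: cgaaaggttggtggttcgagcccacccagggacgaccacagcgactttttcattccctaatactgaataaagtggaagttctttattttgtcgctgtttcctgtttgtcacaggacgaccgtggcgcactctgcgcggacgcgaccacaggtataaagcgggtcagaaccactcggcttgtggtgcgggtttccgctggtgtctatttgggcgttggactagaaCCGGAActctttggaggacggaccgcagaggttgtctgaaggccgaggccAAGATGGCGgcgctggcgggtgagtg
Cox7a2: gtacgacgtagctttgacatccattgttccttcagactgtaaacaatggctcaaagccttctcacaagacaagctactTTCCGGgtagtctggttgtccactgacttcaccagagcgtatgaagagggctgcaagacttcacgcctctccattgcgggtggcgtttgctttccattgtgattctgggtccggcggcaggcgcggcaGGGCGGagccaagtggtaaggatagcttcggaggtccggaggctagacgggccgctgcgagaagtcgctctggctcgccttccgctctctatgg

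Ndufs4 and Ndufs7, which moved in opposite directions at 6 h, both hold the YY1 letters near the start. Ndufs7, Uqcrfs1 and Cox7a2 hold the ETS letters, Cox7a2 also the Sp1 letters and Uqcrfs1 the NF-kB letters on the minus strand. The ETS and NF-kB matches of Uqcrfs1 are separate runs with 1 base between them. Over the 72 nuclear members with a RefSeq promoter, the NRF1 letters were in 13.9%, ETS in 34.7%, YY1 in 11.1%, Sp1 in 43.1%, NF-kB in 5.56%, ISRE in 9.72% and AP-1 in 9.72%. Over all 27025 genes with a RefSeq promoter the shares were 1.95%, 16.7%, 1.64%, 38.2%, 5.06%, 9.76% and 8.97% in the same order. Among members called alike at 6 h, ETS letters were in 2 of 7 higher and 7 of 18 lower promoters, and NRF1 letters in 0 of 7 and 3 of 18. A match describes letters and not a bound site.

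Ndufs4, an accessory subunit of the electron-accepting arm of complex I, had 48.4, 69.0 and 33.1 CPM in KO1 WT cultures S33, S34 and S35 at 6 h against 10.6, 13.1 and 11.3 CPM at rest. In KO2 WT it had 34.2, 36.9 and 54.5 CPM (lowest, median and highest) at 6 h against 9.69, 14.9 and 20.1 CPM at rest, and in KI WT 39.1, 50.2 and 55.8 against 4.81, 7.47 and 8.79 CPM. The groups did not overlap in any cohort. Its log2 fold changes at 6 h were 2.10 ± 0.28, 1.38 ± 0.12 and 2.74 ± 0.12 in KO1, KO2 and KI, and at 24 h 1.10, 0.68 and 1.34, all called. On library totals those at 6 h were 1.09, 0.56 and 1.53. The KI change at 6 h exceeded that of KO2 by 1.23 ± 0.19 in the joint fit (adjusted p = 3.57e-07). F121A libraries had 38.8, 48.6 and 52.95 CPM at 6 h.

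Uqcrfs1, the iron-sulfur subunit of complex III, had 113, 149 and 136 CPM in KO1 WT cultures at 6 h against 52.4, 62.4 and 40.1 CPM at rest. It had 114, 133 and 165 CPM (lowest, median and highest) at 6 h against 49.7, 55.3 and 66.0 CPM at rest in KO2 WT, and 185, 222 and 251 against 49.6, 69.5 and 79.2 CPM in KI WT. The changes at 6 h were 1.36 ± 0.19, 1.26 ± 0.10 and 1.74 ± 0.11 on the log2 scale. The rise was gone at 24 h in KO2 and KI, where the estimates of 0.15 and 0.15 were not called, and held at 0.83 in KO1. Ndufs7, a core complex I subunit next to the ubiquinone site, went the other way, at 15.1, 14.03 and 15.7 CPM in KO1 WT cultures at 6 h against 47.1, 43.4 and 34.7 CPM at rest. Its changes at 6 h were -1.48 ± 0.20, -0.80 ± 0.10 and -0.97 ± 0.10, without overlap of groups in any cohort. At 24 h it was called higher than at rest, by 0.75, 0.36 and 0.32, so that it crossed its resting level between 6 h and 24 h on the TMM scale, while on library totals most nuclear members were below rest at 24 h.

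**Figure D5:**
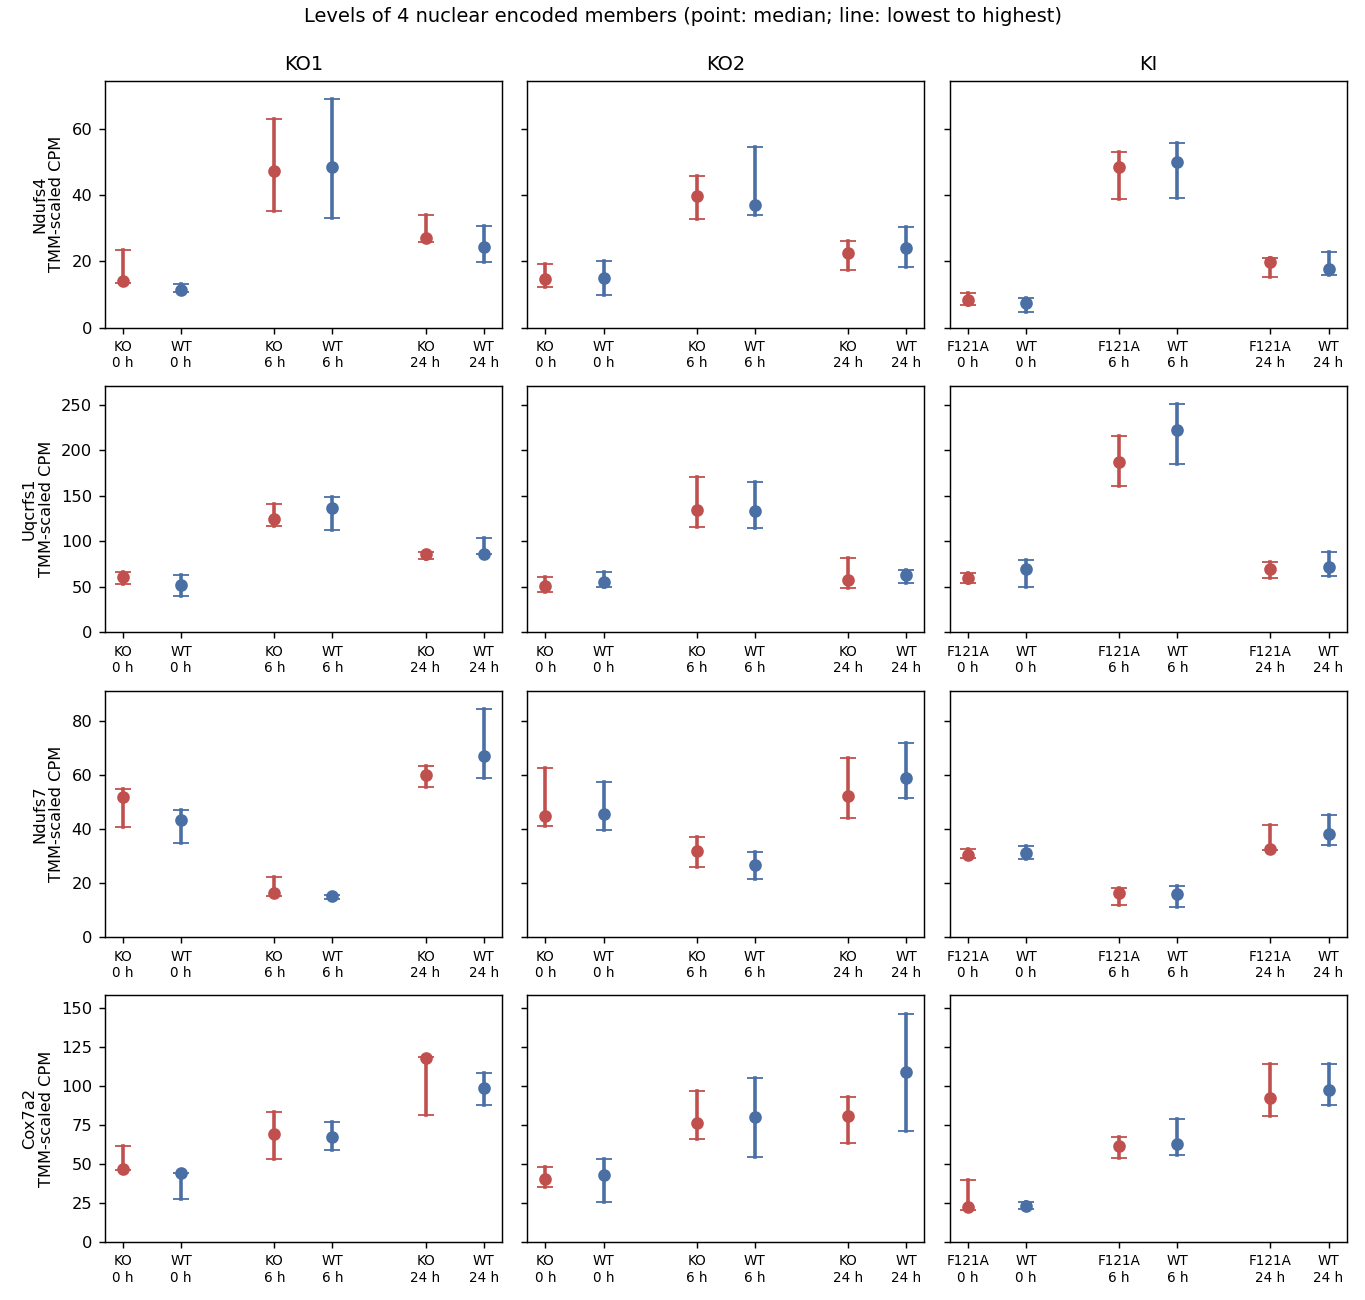
TMM-scaled CPM of Ndufs4, Uqcrfs1, Ndufs7 and Cox7a2 (rows) in the 3 cohorts (columns) by time and genotype (mutant left of WT); points are medians and lines run from the lowest to the highest culture or library. Ndufs4 and Uqcrfs1 peak at 6 h, Ndufs7 is lowest at 6 h, and Cox7a2 is highest in median at 24 h in every cohort and genotype on the TMM scale.

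At 24 h the nuclear members were higher across all complexes on the TMM scale and lower on library totals. On TMM, 38, 37 and 47 nuclear members were called higher and 2, 8 and 7 lower in KO1, KO2 and KI WT, with medians of 0.50, 0.28 and 0.41 against -0.11, -0.02 and 0.03 over all genes. On library totals, which moved the median of all genes by -1.14, -0.47 and -0.84, the calls were 2, 7 and 9 higher and 33, 26 and 47 lower. With the GC trend removed they were 23, 26 and 38 higher and 4, 11 and 12 lower. Relative to other genes, then, nuclear members gained, while their share of all counts stayed below the resting share in each cohort's WT mean. In all 3 cohorts 26 nuclear members were called higher on TMM and 0 lower, beside 18.5% and 13.4% of all genes. They comprised 10 complex I subunits, the assembly factor Ndufaf3, 2 complex III, 7 complex IV and 6 complex V members. Cox8a, a small complex IV subunit, was the one nuclear member called higher in all 3 cohorts on library totals as well.

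Complex IV led at 24 h. Cox7a2, the ubiquitous form of subunit VIIa, had 108, 87.5 and 98.4 CPM in KO1 WT cultures at 24 h against 44.4, 43.9 and 27.7 CPM at rest. It had 71.1, 109 and 146 CPM (lowest, median and highest) at 24 h against 25.5, 43.1 and 52.8 CPM at rest in KO2 WT, and 87.6, 97.5 and 114 against 20.996, 23.2 and 25.2 CPM in KI WT. Its changes were 1.34, 1.38 and 2.10 ± 0.12 on the log2 scale without overlap. Cox8a changed by 1.72, 1.27 and 1.63 and Cox5a, a matrix-side subunit, by 1.95, 1.39 and 0.99. The lower members at 24 h included Cox7a2l, by -0.60 in KO2 and -0.88 in KI with 0.19 uncalled in KO1, and the complex I core subunit Ndufs8, by -0.75 in KO2 and -1.16 in KI with -0.40 uncalled in KO1.

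Among the genotype comparisons, KO2 at 24 h had the most nuclear calls, in the cohort whose genotypes also differ in sex. There 24 of 79 were called lower in KO than in WT and 0 higher, with a median of -0.29, against 4.99% and 6.33% of all genes. On library totals 21 were lower and 0 higher, to which the shares of the TMM fit do not apply. The 24 called on TMM comprised 7 complex I subunits, 1 assembly factor, 3 complex III, 6 complex IV and 7 complex V members. Atp5d, the delta subunit of the ATP synthase head, had 106, 122 and 148 CPM in KO against 155, 179 and 201 CPM in WT, without overlap (-0.55 ± 0.08, adjusted p = 7.89e-07). Ndufb10, a membrane arm complex I subunit, had 17.8, 20.1 and 24.0 CPM in KO against 24.6, 29.8 and 32.4 CPM in WT, also without overlap (-0.49 ± 0.12, adjusted p = 0.00202). Uqcrh, the hinge protein of complex III, had 35.4, 41.4 and 48.5 CPM in KO against 45.3, 60.4 and 84.9 CPM in WT (-0.62 ± 0.13, adjusted p = 0.00044). Cox8a had 119, 171 and 253 CPM in KO against 159, 266 and 337 CPM in WT (-0.61 ± 0.14, adjusted p = 0.00107). All 8 KO libraries lay below the WT median for each of these 4 genes. Neutrophil markers summed to 90.7 to 166 CPM in KO against 68.1 to 94.9 CPM in WT at 24 h. Of the 12 in that list, 4 reached 1 CPM in each genotype at 24 h. Mpo, Elane and Retnlg had no counts in either genotype, and Ngp had none in KO. Macrophage markers summed to 11722 to 13253 CPM in KO against 23023 to 26420 CPM in WT, with Lyz2 at a log2 fold change of -1.31 (adjusted p = 9.32e-13). The part of these markers was not tested.

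Few nuclear members were called at rest and at 6 h in KO2, at 4 of 79 lower at rest beside 4.38% of all genes, and 2 lower and 1 higher at 6 h beside 7.62% and 7.72%. At rest Cox7a2l (-0.46), Atp5c1 (-0.39), Atp5f1 (-0.34) and Ndufb10 (-0.33) were called lower in KO. Cox7a2l had 82.4, 97.9 and 137 CPM in KO against 125, 138 and 168 CPM in WT (adjusted p = 0.00153). At 6 h Atp5f1 (-0.36) and Cox7a2l (-0.30) were called lower and the complex I subunit Ndufa10 (0.28) higher. Without resting WT library 4 the count at rest was 2. On library totals the 6 h split became 15 higher and 0 lower, and at rest 0 higher and 1 lower. The genotype difference changed with time for 6 nuclear members, Atp5d, Atp5o, Cox6b1, Cox8a, Ndufb7 and Uqcrq (11 members without resting WT library 4), 6 of 79 beside 11.9% of all genes. In KI, F121A against WT gave 0 nuclear calls at rest and 0 at 24 h by edgeR (2 and 9 at an unadjusted p under 0.05, and 0 and 1 called by DESeq2). At 6 h it gave 2 of 79, both lower, beside 3.49% of all genes. Uqcrh had 57.5, 69.3 and 79.2 CPM in F121A against 75.5, 86.1 and 114 CPM in WT (-0.40 ± 0.12, adjusted p = 0.0189), and Ndufb10 8.02, 9.70 and 10.6 against 9.97, 12.4 and 13.3 CPM (-0.34 ± 0.11, adjusted p = 0.0291). The count was 4 without resting F121A library 5, and 4 without WT library 5 at 6 h.

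Tissue isoforms of the nuclear subunits were strongly unequal, as raw counts show without any length correction. Of the paired isoforms, Cox4i2 had 35 counts over all libraries, Cox6a2 258, Cox6b2 40, Cox7a1 216, Cox8b 21 and Cox8c 18, and Ndufa4l2 had 7. Their partners were abundant, with Cox4i1 at 297, 334 and 355 CPM and Cox6a1 at 40.04, 47.8 and 57.3 CPM in resting KI WT. Cox4i1 was not called at 24 h in any WT cohort (0.48, -0.02 and -0.16), while Cox6a1 was called higher in all 3 (1.32, 0.77 and 1.21) on the TMM scale. Ndufa4, which is named for complex I but is a subunit of complex IV, was called lower at 6 h in KO2 and KI (-0.44 and -0.46) with the same estimate of -0.44 uncalled in KO1. Its paralogue AA467197, which inflammation is known to induce and whose symbol lies outside the prefixes, was near 0 at rest and high after activation, and had 2147, 2335 and 2881 CPM on library totals in KI WT at 6 h against 1.59, 2.22 and 5.60 CPM at rest. At 6 h its log2 fold changes were 8.72, 10.35 and 10.90 in KO1, KO2 and KI WT, and the 24 h values were 6.36, 6.46 and 8.77.

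The X-linked members, of interest because KO2 genotypes differ in sex, gave no genotype call. Cox7b, a complex IV subunit, differed by -0.07, 0.16 and -0.36 at 0, 6 and 24 h between KO and WT in KO2. Ndufa1, a small complex I subunit, differed by -0.12, -0.20 and -0.19, and the complex I subunit Ndufb11 by -0.18, 0.26 and -0.23. With time, Ndufb11 was called lower at 6 h in WT of all 3 cohorts, by -0.9986, -1.16 and -0.84.

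Other genes of the pathway give the setting. Cytochrome c (Cycs), which shuttles electrons between complexes III and IV, rose at 6 h by 2.32, 2.58 and 2.87 in KO1, KO2 and KI WT, and at 24 h by 2.10, 2.004 and 2.12. With the 4 complex II subunits it forms a list of 5, of which 1, 1 and 2 were called higher and 2, 3 and 3 lower at 6 h. Among assembly factors outside the prefixes, 4, 6 and 5 were called higher and 10, 11 and 10 lower at 6 h of 26, 25 and 24 tested. Sco1, which delivers copper to complex IV, rose by 3.31, 3.82 and 3.89, and Tmem126b, a complex I assembly factor, fell by 2.47, 2.19 and 1.65 on the log2 scale. Of 9, 9 and 8 genes for mitochondrial DNA upkeep and transcription, 0, 0 and 1 were called higher and 5, 4 and 3 lower at 6 h, and 1, 0 and 0 higher and 1, 2 and 3 lower at 24 h. Polrmt, the mitochondrial RNA polymerase, fell at 6 h by 2.22, 0.76 and 1.30. Of 19 genes for mitochondrial RNA stability and processing, 2, 5 and 4 were higher and 11, 7 and 4 lower at 6 h. Pnpt1, an RNA-degrading phosphorylase, rose by 1.59, 1.73 and 2.32. Mitochondrial ribosomal proteins had more calls lower than higher at 6 h, at 7, 13 and 14 higher and 51, 33 and 35 lower of 76, 75 and 75, and fewer lower than higher at 24 h, at 18, 20 and 20 higher and 4, 6 and 12 lower. Over all genes of KO1, KO2 and KI, 25.7%, 32.4% and 36.7% were called higher and 31%, 38.4% and 36.8% lower at 6 h, and 21.3%, 29.9% and 33.9% higher and 20.6%, 29.2% and 29.9% lower at 24 h. The list counts are on the TMM scale, and the shifts given above for library totals apply to each.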

How the data were processed

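RNA was amplified with Smart-Seq2, a full-length, oligo-dT primed and unstranded method, per the labels' protocols. The deposited values are raw counts per gene; TopHat, HTSeq and mm10 are named in the submitters' processing notes, with versions not given in the sources used here. The method does not mark strand, so reads of overlapping genes cannot be told apart. The 3 repeats of each KO1 culture were summed, and each cohort was fitted separately with edgeR 4.0.16 (R 4.3.3): filterByExpr, TMM factors, quasi-likelihood tests with a mean per group, and Benjamini-Hochberg adjustment over all genes tested, with calls at an adjusted p under 0.05. SE were taken from the fold change and F. DESeq2 1.42.0, other scalings and filters, left-out libraries and a replicate block were alternatives. Leaving out the 2 samples of conflicting time labels moved no count by over 1.5 times. The members and lists were chosen with earlier results of these data known. Named members were all mitochondrially encoded ones, the 4 highest and 4 lowest called per comparison at a mean log2 CPM of at least 3, those called in 2 or more genotype comparisons, isoform pairs and X-linked members. In simulated data, where only 100 genes changed 2-fold and 100 changed 4-fold, the WT 24 h comparison recovered 30%, 95% and 90% of 2-fold changes in KO1, KO2 and KI. Far more genes were called in the data than changed in the simulation, so recovery in the data may differ. Gene positions came from GENCODE vM21 and promoters from RefSeq. No library pair agreed within sampling noise.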

Additional observations from a re-analysis of the deposited data

Results flagged for a closer look

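Measures of the members, which overlap, were checked within each group of KO2 and KI. In 13 of these 180 checks 1 library lay far from the rest, and chance alone gives about 1 in 20. In KI WT at 6 h this was library 5 throughout. Its mitochondrially encoded members held 1.06% of counts (group median 0.706%), their ratio to the nuclear members was 3.99 (median 2.46), and mt-Atp6, mt-Atp8 and mt-Nd4 stood at 2703, 161 and 676 CPM (medians 1893, 75.4 and 375). In resting KI F121A, library 5 had the lowest nuclear share, 0.376% (median 0.556%), and the highest mt-Nd3, 67.4 CPM (median 35.5). In KI F121A at 24 h, library 1 had the lowest mt-Cytb, 156 CPM (median 266). In KO2 KO, mt-Nd6 was lowest at rest in library 2, at 26.3 CPM (median 36.3), mt-Co1 was lowest at 6 h in library 1, at 2688 CPM (median 3623), and mt-Co2 was highest at 24 h in library 2, at 609 CPM (median 417). In KO2 WT, mt-Atp8 was highest at rest in library 4, at 287 CPM (median 102), and mt-Cytb was highest at 24 h in library 2, at 2244 CPM (median 1673).

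The KO2 genotype difference changed with time for 6 nuclear members in the edgeR genotype by time test: Atp5d (adjusted p = 0.000568), Cox8a (0.0186), Atp5o (0.0191), Ndufb7 (0.0194), Cox6b1 (0.0237) and Uqcrq (0.0378), which is 6 of 79 beside 11.9% of all genes. Between cohorts, the WT change at 24 h differed for 8 mitochondrially encoded and 17 nuclear members between KI and KO1, and for 9 and 12 between KI and KO2. At 6 h it differed for 1 and 3 members between KI and KO1, and for 1 and 12 between KI and KO2.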

How the results depend on the processing

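Mitochondrially encoded calls kept under all alternatives were 11 of 11 in KI WT at 24 h, 5 of 7 at 6 h, 6 of 8 in KO2 WT at 24 h, 0 of 1 at 6 h, 0 of 1 in KO1 WT at each time, 6 of 10, 6 of 10 and 3 of 3 in KO2 KO against WT at 0, 6 and 24 h, and 1 of 1 in KI F121A against WT at 24 h; 1 call turned its sign in some alternative in each WT cohort at 6 h. Nuclear calls kept were 14 of 42, 33 of 44 and 39 of 59 in KO1, KO2 and KI WT at 6 h (7, 10 and 24 turned sign), 3 of 40, 12 of 45 and 23 of 54 at 24 h (25, 13 and 28 turned sign), 1 of 4, 0 of 3 and 15 of 24 in KO2 KO against WT, and 1 of 2 in KI F121A against WT at 6 h. Counts of members called moved by over 1.5 times as follows, and the cause was not tested. On library totals, mitochondrially encoded counts became 2 (KO1 WT 6 h, against 1), 5 (KO1 WT 24 h, 1), 6 and 6 (KO2 KO against WT at rest and 6 h, 10 each), 12 (KO2 WT 6 h, 1), 12 (KI WT 6 h, 7), 2 (KI F121A against WT 24 h, 1) and 3 (KI against KO2 change at 6 h, 1). Nuclear counts became 65 (KO1 WT 6 h, 42), 1 (KO2 genotype at rest, 4), 15 (KO2 genotype 6 h, 3), 74 (KO2 WT 6 h, 44), 27 (KO2 genotype by time, 6), 1 (KI genotype 6 h, 2), 10 (KI against KO1 24 h, 17) and 22 (KI against KO2 24 h, 12). With no filter beyond 1 count, mitochondrially encoded counts were 0 (KO1 WT 6 h), 3 (KO1 WT 24 h), 0 (KO2 WT 6 h), 2 (KO2 genotype by time, against 0), 1 (KI genotype at rest, 0), 3 (KI genotype 24 h), 2 (KI genotype by time, 0) and 5 (KI against KO2 6 h); nuclear counts were 24 (KO1 WT 24 h, 40), 0 (KO2 genotype 6 h), 10 (KO2 genotype by time), 1 (KI against KO1 6 h, 3) and 7 (KI against KO1 24 h). With the GC trend removed, an alternative chosen after seeing the data, mitochondrially encoded counts were 0 (KO1 WT 6 h), 4 (KO2 WT 6 h), 11 (KI WT 6 h), 2 (KI genotype 24 h), 2 (KI genotype by time) and 3 (KI against KO2 6 h), and nuclear counts 6 (KI genotype 6 h), 1 (KI genotype 24 h, 0), 1 (KI genotype by time, 0) and 11 (KI against KO1 24 h). In KI genotype at 24 h, DESeq2 gave 2 mitochondrially encoded and 1 nuclear, and DESeq2 size factors and a fit of only the 2 groups 1 nuclear each. DESeq2 size factors gave 2 mitochondrially encoded in KI against KO1 at 6 h. A fit of only the 2 groups gave 2 nuclear in KO2 genotype at rest. KO2 libraries summed in threes gave 1 nuclear at rest, 0 at 6 h, and 1 mitochondrially encoded and 3 nuclear for genotype by time. Libraries left out after seeing the data were resting KO2 WT library 4 (6 mitochondrially encoded and 2 nuclear for genotype at rest, 2 mitochondrially encoded for WT 6 h, 11 nuclear for genotype by time), resting F121A library 5 (4 nuclear for KI genotype 6 h) and KI WT library 5 at 6 h (4 nuclear for KI genotype 6 h, 2 mitochondrially encoded for 24 h and 1 for genotype by time). Leaving out each KO1 culture gave 0 to 1 mitochondrially encoded and 25 to 44 nuclear calls for WT 6 h, with 25 without S33, and 0 to 1 and 24 to 42 for WT 24 h, with 25 without S33 and 24 without S35. Same-numbered libraries did not deviate together throughout (correlations from -0.18 to 0.32), and the labels do not say what a number shares. As a hint from the data, for 3 of 3 KO1 cultures the highest correlation was the one with the same number for WT at 0 and 6 h (0.09 to 0.32) and KO at 6 and 24 h (0.13 to 0.27). With the replicate block the mitochondrially encoded count was 2 for KO1 WT 6 h, 4 for KI genotype 24 h and 1 for KI genotype by time, and the nuclear count 1 for KI genotype 24 h. KO1 genotypes share no culture number and had no block. KO1 had 3 cultures a group, and 30% of simulated 2-fold changes were recovered in it at 24 h, with far fewer genes changed than were called in the data. The part of depth in this was not tested.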

Other observations

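Genes of mitochondrial turnover moved in opposed directions in activated WT macrophages, as log2 fold changes of the edgeR tests on the TMM scale in KO1, KO2 and KI. Bnip3, a receptor that targets mitochondria for autophagy, rose by 3.82, 3.61 and 3.78 at 6 h and was higher by 4.53, 3.41 and 6.04 at 24 h. Pink1, a kinase that marks damaged mitochondria, fell by 2.02, 2.13 and 2.21 at 6 h. Of 8, 8 and 7 tested mitophagy genes, 1, 1 and 1 were called higher and 7, 4 and 6 lower at 6 h, and 3, 4 and 4 higher and 2, 2 and 2 lower at 24 h.

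Of 9 nuclear regulators of respiratory genes, 4, 5 and 7 were called higher and 2, 1 and 1 lower at 6 h. Hif1a, the oxygen-regulated transcription factor that promotes glycolysis, rose by 3.93, 3.76 and 4.28 at that time. Of 8 genes of the outer membrane import complex, 1, 1 and 3 were called higher and 4, 0 and 2 lower at 6 h, with Tomm70a, an import receptor, higher by 2.24, 2.05 and 2.72. Of 13, 12 and 12 inner membrane import genes, 1, 2 and 4 were called higher and 6, 5 and 4 lower. Ucp2, an inner membrane carrier, fell by 1.96, 2.17 and 2.61 at 24 h, and in KO2 it was lower in KO than in WT at 24 h by a log2 fold change of -0.88 (adjusted p = 1.73e-06). Over all genes of KO1, KO2 and KI, 25.7%, 32.4% and 36.7% were called higher and 31%, 38.4% and 36.8% lower at 6 h, and 21.3%, 29.9% and 33.9% higher and 20.6%, 29.2% and 29.9% lower at 24 h. On library totals the median of all genes moved by -1.11, -0.93 and -1.19 at 6 h and by -1.14, -0.47 and -0.84 at 24 h, and the lists were not counted on that scale.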
